A study of Mus musculus with 6 samples.

Results

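The genes described here are 10 genes known from brown and white fat cells, measured by sequencing of messenger RNA from whole mouse hearts: Ucp1, Cidea, Adipoq, Plin1, Cfd, Adig, Retn, Lep, Thrsp and Aqp7. They were taken from a list of names, and all 10 were found among the 30094 genes of the files. The genes were chosen by their FPKM in these libraries, above all the Ucp1 level of control library 1, so the height of that library is described without a test. The hearts came from mice aged 32 weeks. Libraries 1, 2 and 3 were from ApoE-/- mice, the littermate controls, and libraries 4, 5 and 6 from ApoE-/- Timp3-/- mice, called double mutants below. Both groups thus lack apolipoprotein E, a carrier of blood lipids, and the double mutants also carry the mutation of Timp3, which encodes a tissue inhibitor of metalloproteinases. The sex and strain background of the mice and the trimming of the hearts stay unstated in the labels. The labels call the controls littermates and say no more on how the animals were related, so a p-value here sets a difference against the spread of these 6 samples only.

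White fat cells store triglyceride in 1 large lipid droplet and secrete hormones, whereas brown fat cells hold many small droplets and many mitochondria and burn fatty acids to make heat. The uncoupling protein UCP1, which lets protons leak back across the inner mitochondrial membrane, defines brown and beige fat cells. Fat lies around the atria and great vessels of the heart and in the mediastinum, and heart muscle itself burns fatty acids, so some genes of fat cells also have a source in the heart.

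Levels are FPKM, fragment counts scaled to transcript length and library size, which can be compared between genes. Where 3 values follow a genotype, they are in library order, 1 to 3 for the controls and 4 to 6 for the double mutants. The coverage in the files added up to 654 to 1339 aligned megabases per library. Heart muscle genes dominated all 6 libraries, with Myh6, the main myosin of the adult mouse heart, at an FPKM of 634 to 991. Timp3 was at an FPKM of 36.3 to 52.1 in the controls and of 20.2 to 29.6 in the double mutants, lower but not lost (log2 difference -0.61, adjusted p = 0.29 by limma), and the labels do not say which exons the mutation takes out. Over all 11382 genes tested between the genotypes, 5 passed (0.0439%), 2 of them lower in the double mutants (0.0176%), at an adjusted p under 0.05 by limma, a linear model with a spread shared across genes.

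Library 1 stood apart before any comparison of genotypes. It was the highest of the 6 libraries for 10 of the 10 fat genes, against 43.1% of all genes tested. It was at least 2 times the next highest library for 7 of the 10, against 1.13% of all genes tested (129 genes, of which 26 stood in the lists for fat cells, fat synthesis and glycerol handling). Since this height was how the genes were chosen, nothing is read from these counts. Library 5, a double mutant, was second for 6 of the 10 genes. The lists used below beside the 10 genes are of brown fat-selective genes, other adipocyte-selective genes, adipocyte genes with further sources, fat synthesis, glycerol handling, uncoupling proteins and markers of other cell types.

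**Figure D1:**
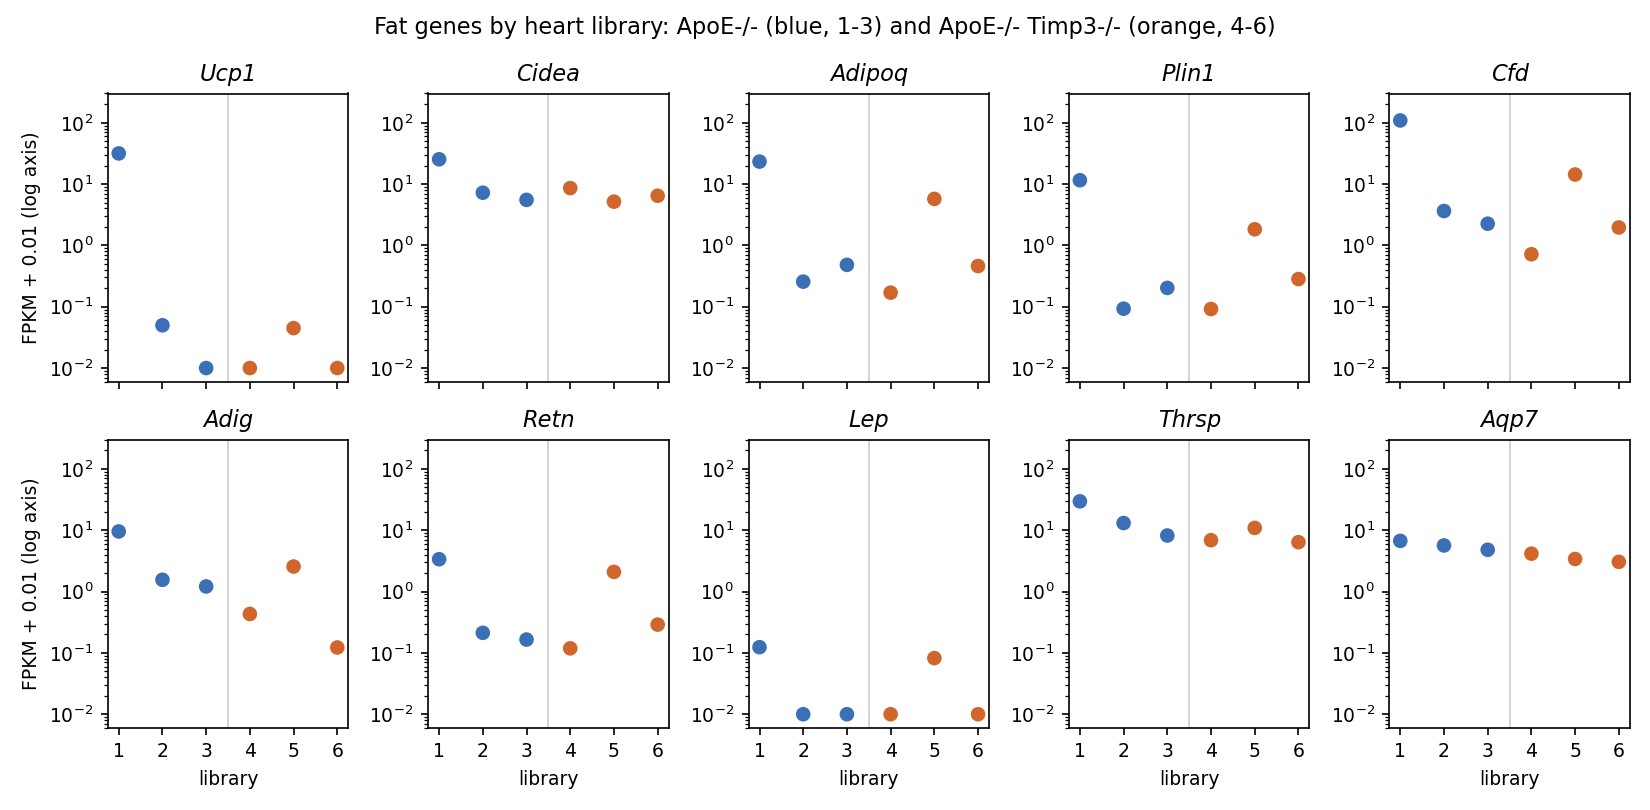
Each panel plots 1 gene: the deposited FPKM plus 0.01 on a log axis against the library, ApoE-/- in blue and ApoE-/- Timp3-/- in orange. Library 1 is the highest point in all 10 panels, library 5 stands out for Adipoq, Plin1, Cfd, Retn and Adig but not for Ucp1, and Cidea, Thrsp and Aqp7 are well above 0 in every library.

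The promoters of 4 of the genes are shown because they stand for the 3 patterns described below: Ucp1 was high in library 1 alone, Adipoq and Plin1 in libraries 1 and 5, and Aqp7 was present in all 6 libraries. Each sequence is the 250 bases before a gene start in RefSeq, build GRCm38.p6, 5′ to 3′ on the gene's strand. Capitals mark matches on either strand to CCAAT, to TTGCNNAA (a core bound by C/EBP factors) or to AGGTCA (the half-site of nuclear receptors such as the PPAR family). The positions are chr8:83290098-83290347 (+) for Ucp1, chr16:23146286-23146535 (+) for Adipoq, chr7:79732777-79733026 (-) for Plin1 and chr4:41048137-41048386 (-) for Aqp7.
Ucp1: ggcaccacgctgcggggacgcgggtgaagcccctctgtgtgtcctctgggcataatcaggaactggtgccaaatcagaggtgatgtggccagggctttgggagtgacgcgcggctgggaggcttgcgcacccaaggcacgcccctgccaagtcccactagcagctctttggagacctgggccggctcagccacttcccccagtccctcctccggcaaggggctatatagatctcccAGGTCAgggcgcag
Adipoq: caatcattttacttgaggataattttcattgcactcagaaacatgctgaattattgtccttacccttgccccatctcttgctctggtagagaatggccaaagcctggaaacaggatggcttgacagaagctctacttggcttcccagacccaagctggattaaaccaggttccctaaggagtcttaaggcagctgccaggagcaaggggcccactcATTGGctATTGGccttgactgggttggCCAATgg
Plin1: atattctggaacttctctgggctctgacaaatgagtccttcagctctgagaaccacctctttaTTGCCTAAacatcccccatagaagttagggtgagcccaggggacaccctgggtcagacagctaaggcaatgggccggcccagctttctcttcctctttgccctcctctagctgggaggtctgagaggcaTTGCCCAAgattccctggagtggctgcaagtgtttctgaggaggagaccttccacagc
Aqp7: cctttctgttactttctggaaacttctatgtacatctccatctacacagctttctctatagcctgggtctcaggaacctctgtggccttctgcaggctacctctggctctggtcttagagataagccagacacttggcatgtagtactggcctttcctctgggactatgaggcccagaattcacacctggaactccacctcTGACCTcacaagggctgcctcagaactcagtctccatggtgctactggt
The Ucp1 window held 1 AGGTCA, the Adipoq window 3 CCAAT, the Plin1 window 2 TTGCNNAA and the Aqp7 window, the outer of 2 in RefSeq, 1 AGGTCA. Of all 32851 RefSeq promoter windows of this length, 33.8% held CCAAT, 9.56% held TTGCNNAA, 14% held AGGTCA and 12.4% held TATAAA. Of the 9 fat genes searched, Cidea being left out, these motifs were in 2, 2, 3 and 0. Aqp7 has 2 windows, which overlap and are counted as 1 gene. A match is a run of letters and does not show binding.

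Ucp1 was a feature of 1 heart. The gene (chromosome 8, 85814247 to 85822355, plus strand, build NCBIM37, as for all gene positions below) was at an FPKM of 31.6 in control library 1, with an interval in the authors' file of 29.3 to 34.0. It was at 0.040 in library 2 and 0.035 in library 5, where the intervals reached down to 0, and it was listed at 0 in libraries 3, 4 and 6. The other 2 controls were therefore as low as the double mutants, and the groups overlapped. The mean of scaled FPKM (divided by a factor per library, as set out with the processing) was 9.06 ± 15.7 over the controls against 0.0129 ± 0.0224 over the double mutants (SD, n = 3 per genotype). The log2 difference, double mutants minus controls as throughout, was -1.61 with all libraries and -0.01 without library 1. The related genes Ucp2 and Ucp3, which heart muscle expresses, had another profile. For Ucp3 the controls had an FPKM of 29.0, 7.37 and 12.6, the double mutants one of 36.1, 34.4 and 26.6. Ucp2 ran at 32.6, 16.8 and 14.3 among controls, against 50.7, 24.5 and 31.8 among double mutants. In both, library 1 was the highest control, yet no library was near 0. Their log2 differences were 1.21 ± 0.39 and 0.82 ± 0.29 (SE), and neither passed (adjusted p = 0.30 and 0.34 by limma). Slc25a30, a mitochondrial carrier of the same family, was at 1.39 to 2.34, and its relatives Slc25a14 and Slc25a27 stayed under an FPKM of 1.

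Other genes selective for brown fat were also listed in library 1, though at low levels. Elovl3, an elongase of very long fatty acids induced in brown fat by cold, was at an FPKM of 1.14 in library 1 and at 0.031 in library 5, and it was listed at 0 in the other 4. Otop1, a proton channel of brown fat, was at 1.98 in library 1 and at no more than 0.022 elsewhere. Slc27a2, a fatty acid transporter and activating enzyme, was at 5.54 in library 1 and at 0.73 or less elsewhere. Adrb3, the beta-3 adrenergic receptor through which noradrenaline activates fat cells, was at 2.73 in library 1 and at 0.35 in library 5. Of the 22 genes of the brown fat list found in the files, Ucp1 and Cidea among them, 17 were highest in library 1 and 11 were at least 2 times the next library. The list also held genes with a heart source: Kcnk3, a potassium channel, was at 36.9 to 41.3 in all 6 libraries, and Prdm16, a regulator of brown fat identity, at 1.07 to 1.88. Pank1, a coenzyme A synthesis enzyme, was at 17.2 in library 1 and at 6.83 to 10.5 elsewhere, and Sod3, an extracellular superoxide dismutase, was at 10.97 in library 1 and at 0.82 to 8.80 elsewhere. Among 14 oxidative genes that brown fat shares with heart muscle, such as Cox7a1, Acadl, Fabp3 and Cox8b, 5 were highest in library 1. Of all genes tested, 43.1% were. Letmd1, a mitochondrial gene of that list, was the 1 gene at least 2 times the next library, at 4.87 against 1.07 to 1.55.

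Cidea was present in every heart but had a second transcript in library 1. The gene (chromosome 18, 67503218 to 67527448, plus strand) encodes a lipid droplet protein that fuses droplets and is abundant in brown fat. Its summed FPKM among controls was 25.4, 7.22 and 5.51, and among double mutants 8.59, 5.16 and 6.44. Library 1 was thus 2.95 times the next highest, and the other 5 libraries lay close together. The annotated transcript begins with an exon at 67503218 to 67503494, and its control values were 7.26, 7.22 and 5.51. In libraries 2 to 6 it made up the whole of Cidea, and library 1 did not stand out for this transcript. A transcript assembled in library 1 alone, at an FPKM of 18.1 (interval in the file 15.6 to 20.7), began at 67511492 with an exon of 19 bases, inside the first intron, and then joined the same exon at 67518364 to 67518508 and those after it. It made up 71.4% of Cidea in library 1. Such a short first exon may be incomplete, and the split between transcripts that share all later exons is an estimate by Cufflinks. The log2 difference of Cidea between the genotypes was -0.49 with all libraries (adjusted p = 0.69 by limma), 0.05 with annotated transcripts alone and 0.04 without library 1.

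**Figure D2:**
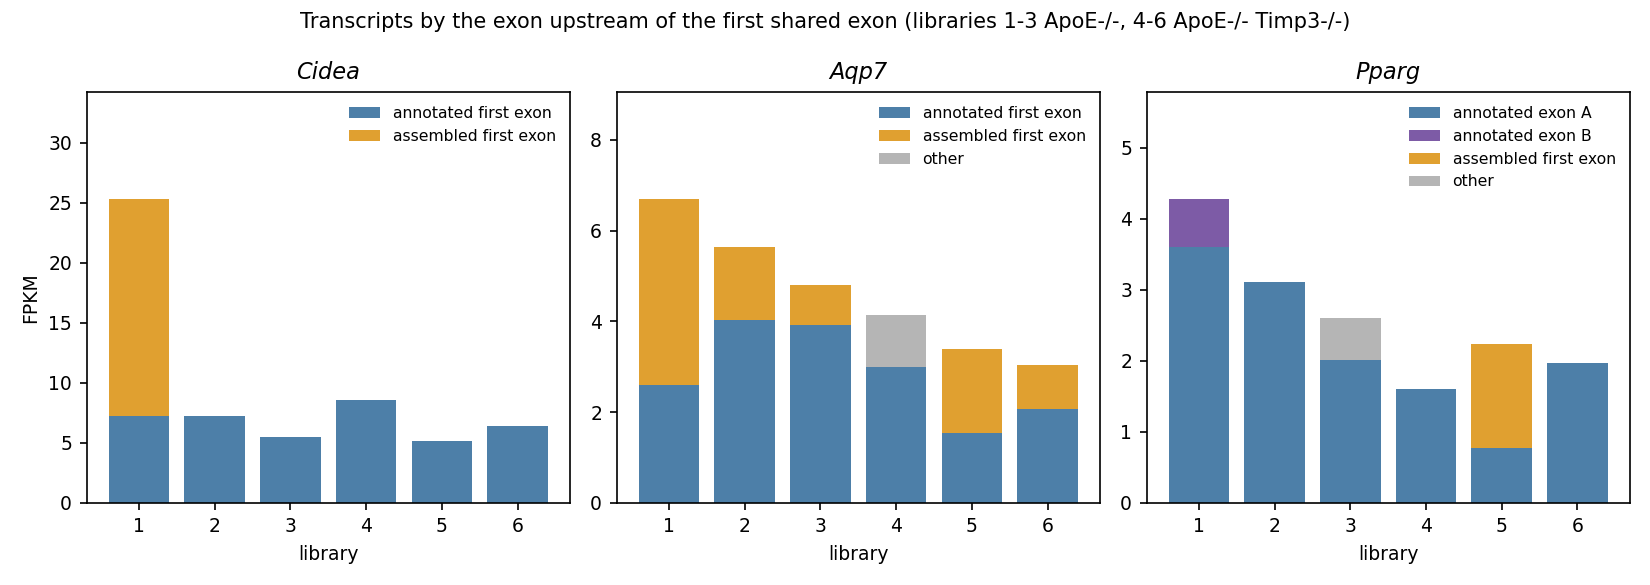
Stacked bars give the FPKM of transcripts of Cidea, Aqp7 and Pparg in each library, split by the exon that precedes the first shared exon. For Pparg, exon A lies on the long annotated transcript and exon B opens the transcript for PPAR gamma 2; the assembled first exon of Cidea appears in library 1 alone, and that of Aqp7 in libraries 1, 2, 3, 5 and 6.

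The adipokines marked libraries 1 and 5. Adipoq (chromosome 16, 23146609 to 23158101, plus strand) encodes adiponectin, a hormone made by fat cells that raises insulin sensitivity. Adipoq stood at an FPKM of 23.3, 0.25 and 0.47 among controls, and at 0.16, 5.72 and 0.45 among double mutants. In each genotype 1 library was high and the other 2 were under 0.5, so the groups overlapped. Cfd (chromosome 10, 79353598 to 79355401, plus strand) encodes adipsin, the protease that starts the alternative complement pathway. Control levels of Cfd were 109, 3.63 and 2.25 and double mutant levels 0.71, 14.3 and 1.95, the same 2 libraries being high. Library 1 was 4.06 times library 5 for Adipoq and 7.62 times for Cfd. Retn (chromosome 8, 3655770 to 3660110, plus strand), the gene of the hormone resistin, which white fat makes in mice, had levels of 3.36, 0.20 and 0.16 among controls, against 0.11, 2.09 and 0.28 among double mutants. Library 1 was 1.61 times library 5, less than for Adipoq. Lep (chromosome 6, 29010220 to 29023877, plus strand), the gene of the satiety hormone leptin, was at 0.11 in library 1 and 0.072 in library 5 and was listed at 0 in the other 4. At so low a level Lep did not enter the test. Of the adiponectin receptors, Adipor1 was at 72.4 to 92.3 and Adipor2 at 10.8 to 23.8 in all libraries. Cdh13, a cadherin that binds adiponectin, was at 21.3 to 28.2. The leptin receptor gene Lepr was at 0.36 to 1.12.

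Genes of the fat cell's lipid droplet followed the adipokines. Plin1 (chromosome 7, 86866050 to 86877662, minus strand) encodes perilipin 1, which coats the droplet and gates lipolysis. Plin1 reached an FPKM of 11.5, 0.083 and 0.19 among controls, and 0.082, 1.82 and 0.27 among double mutants. Adig (chromosome 2, 158328348 to 158333934, plus strand), a small membrane protein of fat cells known as adipogenin, reached 9.56, 1.55 and 1.20 among controls, against 0.42, 2.55 and 0.11 among double mutants. For both genes libraries 1 and 5 were the highest 2, and library 1 was 6.34 and 3.74 times library 5. Among the other 4 libraries, controls 2 and 3 lay above double mutants 4 and 6 for Adig, while all 4 were under 0.3 for Plin1.

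The genes most like Adipoq over the 6 libraries, by the distance between centred log2 profiles, were Cidec (0.64), Fasn (0.75), Plin1 (1.09), Cdo1 (1.12) and Pck1 (1.32). Cidec, a lipid droplet protein of white fat, was at an FPKM of 17.4 in library 1, 3.42 in library 5 and no more than 0.56 elsewhere. Pck1, an enzyme on the path from small precursors to glycerol phosphate in fat, was at 58.3 in library 1, 7.62 in library 5 and 1.31 in library 6. Car3, a carbonic anhydrase abundant in white fat, was at 119, 23.9 and 3.12 in the same 3 libraries. Of 26 other adipocyte-selective genes found in the files, 23 were highest in library 1, and 18 were at least 2 times the next library. Over all genes tested, these shares were 43.1% and 1.13%. Library 5 was the highest of libraries 2 to 6 for 15 of the 26, against 7.61% of all genes tested. Plin4, a further droplet coat protein, was an exception in that libraries 5 (22.0) and 6 (21.1) came near library 1 (26.2). Gpd1, which makes glycerol phosphate from a glycolytic intermediate, was at 31.7 in library 1 and at 5.19 to 9.59 elsewhere.

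Libraries 1 and 5 shared the white fat genes but not Ucp1. Within a library, Ucp1 per Adipoq was 1.36 in library 1 and 0.0061 in library 5. Cidec per Adipoq was 0.75 and 0.60, Adig per Adipoq 0.41 and 0.45, Car3 per Adipoq 5.10 and 4.18, and Fasn per Adipoq 2.81 and 2.44 in libraries 1 and 5. Other genes known from all fat cells did not keep the ratio: Plin1 per Adipoq was 0.50 and 0.32, Pck1 per Adipoq 2.51 and 1.33, and Cfd per Adipoq 4.69 and 2.50. Retn per Adipoq went the other way, at 0.14 in library 1 and 0.36 in library 5, as did Lep per Adipoq, at 0.0049 and 0.013. Of the 26 other adipocyte-selective genes, 12 were lower and 14 higher per Adipoq in library 5. Elovl3 per Adipoq was 0.049 against 0.0055 and Slc27a2 per Adipoq 0.24 against 0.029, lower in library 5 as for Ucp1, but the brown fat list as a whole was split. Of its 18 genes outside the 10 that were above 0 in library 1, 8 were lower and 10 higher per Adipoq in library 5. Adipoq itself was lower in library 5 (5.72 against 23.3), so a gene at an even heart level must rise per Adipoq. Kcnk3 did so, with ratios of 1.68 and 6.44. The counts of both lists therefore cannot separate genes of fat from genes with a heart source. Dio2, the enzyme that activates thyroid hormone in brown fat, had ratios of 0.024 and 0.027. Ebf2, a factor of brown fat precursors, had ratios of 0.13 and 0.14. Neither gene was raised in library 5, however. Dio2 was at an FPKM of 0.15 there and at 0.061 to 0.43 in libraries 2, 3, 4 and 6. Ebf2 was at 0.78 there and at 0.80 to 1.27 in the same other libraries. With 1 library of each kind these ratios have no replicate check.

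**Figure D3:**
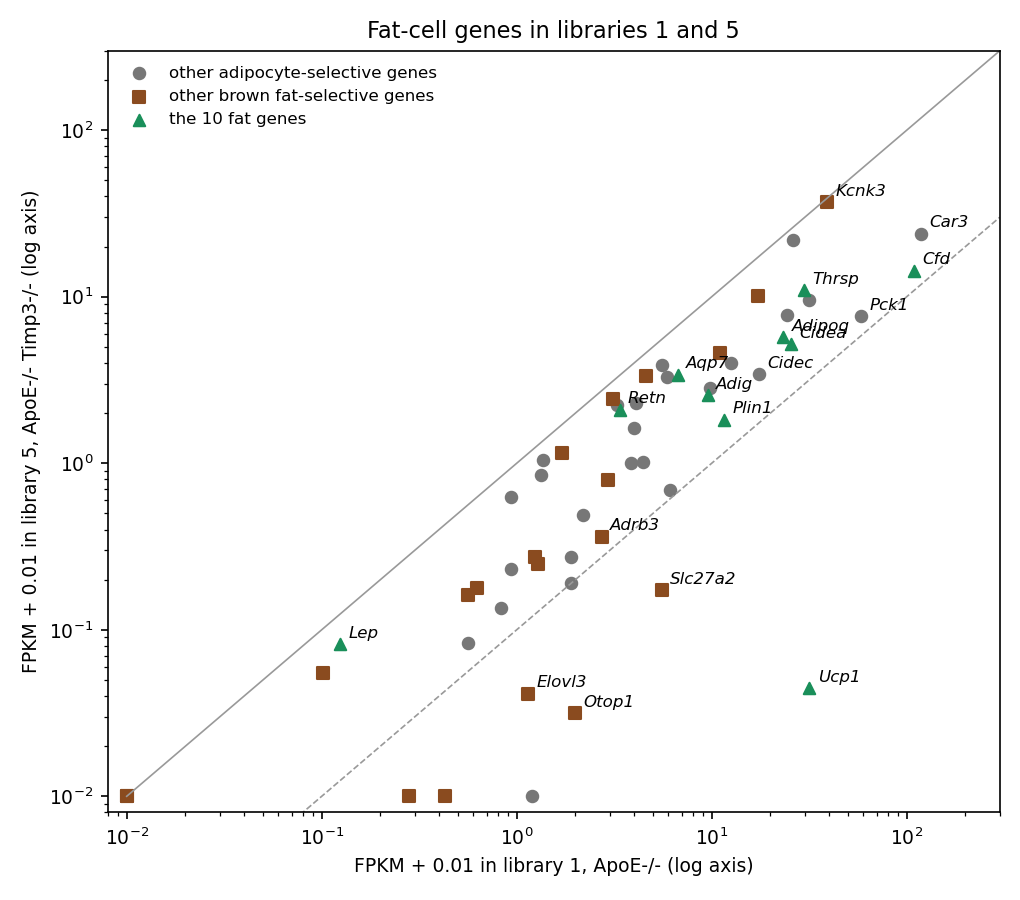
Each point is a gene, with the FPKM plus 0.01 in library 1 on the x axis and in library 5 on the y axis, both log axes; the solid line marks equal levels and the dashed line a level 10 times lower in library 5. Most adipocyte genes lie between the lines, while Ucp1, Elovl3, Otop1 and Slc27a2 are among those below the dashed line.

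Thrsp had a level in every heart and was highest in library 1. The gene (chromosome 7, 104561448 to 104566240, minus strand) encodes a small nuclear protein, induced by thyroid hormone, that promotes fat synthesis. Thrsp levels were an FPKM of 29.6, 13.1 and 8.20 for controls, then 6.88, 10.9 and 6.38 for double mutants. Library 1 was 2.26 times the next library, and the lowest library still reached 21.6% of the highest. Some fat synthesis enzymes had a lower base than Thrsp, others a higher one. Scd1, a fatty acid desaturase, was at 197 in library 1, 64.3 in library 5 and 2.16 to 5.64 in the others. Fasn, fatty acid synthase, was at 65.3 in library 1, 13.97 in library 5 and 2.15 to 4.37 in the others. Me1, which supplies reducing power, and Acacb, the carboxylase form that regulates fatty acid oxidation in muscle, were even, at 15.8 to 23.1 and 24.3 to 40.9. Mid1ip1, the relative of Thrsp, was at 9.53 to 25.5, with library 5 lowest and library 4 highest. Of the 18 genes in this list, 13 were highest in library 1 and 7 were at least 2 times the next library. Over all genes tested, these shares were 43.1% and 1.13%.

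Aqp7 was the fat gene with the most even level across hearts. It encodes an aquaglyceroporin, a channel for water and glycerol through which fat cells release glycerol, and it is also known from heart muscle and capillaries. Aqp7 (chromosome 4, 40980107 to 40995172, minus strand) had a control FPKM of 6.71, 5.64 and 4.79, and a double mutant FPKM of 4.15, 3.39 and 3.05. All 3 double mutants lay below all 3 controls, library 5 was not raised, and library 1 was only 1.19 times library 2. Scaled FPKM averaged 5.52 ± 0.282 over controls, against 3.62 ± 0.539 over double mutants (SD, n = 3 per genotype). The log2 difference was -0.50 ± 0.13 (SE; 95% interval -0.80 to -0.20) with an unadjusted p of 0.0052 and an adjusted p of 0.26 by limma, so Aqp7 did not pass the test over all genes. It was the 1 fat gene whose groups did not overlap, a pattern that 9.22% of all genes tested had in this direction and 9.96% in the other. The difference was -0.48 without library 1 (adjusted p = 0.39) and -0.50 with the level of the other adipocyte-selective genes as a covariate (adjusted p = 0.28). In whole hearts, fewer cells of a type and less RNA per cell cannot be told apart. Markers of 2 other cell types lay mostly on the same side, while those of heart muscle did not. Of 8 endothelial markers 7 had differences below 0 (median -0.34, against -0.01 over all genes), with a summed FPKM, mostly Fabp4, of 353 to 582 for controls and 330 to 431 for double mutants. Of 9 tested fibroblast markers 8 did (median -0.38), with sums of 283 to 452 and 276 to 290. At an unadjusted p under 0.05, 3 of the 8 and 4 of the 9 were lower (5.23% of all genes), and 3 and 5 did not overlap (9.22%). In both lists 0 passed and none of the tested markers was at 0 in any library. Of 10 heart muscle markers, 8 had differences above 0 and 2 below (median 0.15). The 8 macrophage markers were split, 4 above and 4 below (median -0.04). The part of these cell types in the Aqp7 difference was not tested.

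Aqp7 also had a second first exon. The annotated transcript begins with an exon at 40994906 to 40995172 and had an FPKM of 2.59, 4.04 and 3.92 among controls, then 2.99, 1.54 and 2.06 among double mutants. Transcripts whose first exon lies within 40994485 to 40994631, between the annotated first exon and the next, were assembled separately in 5 libraries. Their starts differed between libraries, from 40994518 to 40994631, while the exon ended at 40994485 in each. They were at 4.12, 1.61 and 0.875 among controls and at 1.85 and 0.985 for double mutants 5 and 6. They made up 61.4% of Aqp7 in library 1 and 54.6% in library 5, against 28.5%, 18.2% and 32.3% in libraries 2, 3 and 6. The 2 libraries with the highest Adipoq thus also had the highest share of the inner first exon. Its level in library 5 (1.85) was near that in library 2 (1.61), however, where Adipoq was at 0.25. The annotated transcript was lowest in library 5 (1.54). As for Cidea, the split between transcripts that share later exons is an estimate by Cufflinks. In library 4 a transcript of 1717 nt from the 3′ end, with no exon upstream of it, was assembled in its place, at 27.8%, so the share there is not known.

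Other genes of glycerol handling were mostly highest in library 1, 11 of the 14 found with Aqp7 among them (43.1% of all genes tested). Of the 14, 4 (Gpd1, Mogat1, Aqp3 and Mogat2) were at least 2 times the next library (1.13%). Mogat1, Aqp3 and Mogat2 lay under the filter of the test. The aquaglyceroporin genes Aqp3 and Aqp9 stayed at or below 0.71 and 0.17. Gk, glycerol kinase, was at 2.78 to 4.59. Mgll, the lipase that frees glycerol from monoglycerides, was at 35.9, 28.1 and 21.6 among controls against 19.9, 16.2 and 19.7, without overlap, and did not pass (log2 difference -0.50, adjusted p = 0.26 by limma). Lipe, hormone-sensitive lipase, was at 24.6 in library 1 and 8.21 to 16.5 elsewhere, and Gpd2, the mitochondrial glycerol phosphate dehydrogenase, at 8.81 and 3.32 to 4.50. Pnpla2, the first lipase of triglyceride breakdown, was at 99.3 to 183, Gpam at 21.4 to 40.8 and Agpat2, which like Gpam builds glycerolipids, at 22.6 to 48.1. Of the 10 genes tested in this list, 4 were above 0 and 6 below, with a median of -0.03, and 0 passed; 2 of them, Aqp7 and Mgll, were lower at an unadjusted p under 0.05, where 5.23% of all genes were. The genes nearest to the profile of Aqp7 over the 6 libraries were Mylk (distance 0.13), Hs3st1 (0.13), Myo1e (0.15), Rhoj (0.19) and Klhl6 (0.19).

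Pparg, the receptor that drives fat cell formation, was listed with its fat cell start in library 1 alone. Summed over transcripts, Pparg (chromosome 6, 115311239 to 115440419, plus strand) came to an FPKM of 4.28, 3.11 and 2.60 for controls, then 1.60, 2.23 and 1.97 for double mutants. The annotated transcript with the first exon of PPAR gamma 2, the form typical of fat cells (exon at 115372084 to 115372210), was at 0.69 in library 1 and was listed at 0 in the other 5. Transcripts through the exon of the other annotated form, at 115333697 to 115333761, were at 3.60, 3.11, 2.01, 1.60, 0.77 and 1.97 in libraries 1 to 6. In library 5, the other library with white fat genes, a further start at 115368308 was assembled at 1.46. The sum did not pass between genotypes (log2 difference -0.49, adjusted p = 0.29 by limma), though its groups did not overlap.

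Between the genotypes, the 6 fat genes that reached the filter without library 1 were Cidea, Adipoq, Cfd, Adig, Thrsp and Aqp7, and 0 of them passed limma's test over all genes, where 0.0439% of all genes did. Lep lay under the filter. Ucp1, Plin1 and Retn were above it only through library 1 and are left out of these counts. Adipoq and Adig were kept, although outside library 1 only their height in library 5 (5.72 and 2.55) lifted them to the filter. The filter was drawn once from all 6 libraries, so every fit with libraries left out tested the same 11382 genes. At an unadjusted p under 0.05, 1 of the 6, Aqp7, was lower, against 5.23% of all genes, and 0 were higher, against 6.97%. With all libraries the differences of all 6 were below 0, with a median of -0.66 against -0.01 over all genes. Without library 1 the median was -0.17, 3 were above 0 and 3 below, and again 0 passed, against 0.0264% of all genes. At an unadjusted p under 0.05, Aqp7 was then again the 1 lower gene (4.94% of all genes), and 0 were higher (5.75%). The unadjusted count moved with the libraries and the model. It was 2 without library 3 (Aqp7 and Thrsp; 3.74% of all genes) and 3 without library 5 (with Adig; 3.28%). It was 4 with the adipocyte-selective level as a covariate (with Cfd too; 5.47%) and the same 4 genes without libraries 1 and 5 (2.97%). Adig, 1 of these 4, was under the filter once libraries 1 and 5 were both left out. With annotated transcripts only it was 0. The log2 difference of Adipoq was -0.56 ± 1.17 (SE) with all libraries and 0.74 ± 0.77 without library 1, and that of Cfd was -1.39 ± 1.37 and 0.14 ± 0.91 (adjusted p of 0.73 or more by limma). The interval of Adipoq with all libraries ran from -3.31 to 2.19, so large differences in either direction could not be seen in these data. Without libraries 1 and 5, chosen after their values were seen, Adipoq differed by -0.09 ± 0.22, while Cfd was at -0.84 ± 0.32, Adig at -0.94 ± 0.21, Thrsp at -0.65 ± 0.22 and Aqp7 at -0.51 ± 0.19 (adjusted p of 0.71 or more by limma). There 0 of the 6 passed, against 0.0527% of all genes, but Adipoq and Adig were under the filter in the libraries kept. Cfd, Thrsp and Aqp7 were on the low side in double mutants 4 and 6 against controls 2 and 3 without passing the test. So was Adig, at a level under the filter.

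**Figure D4:**
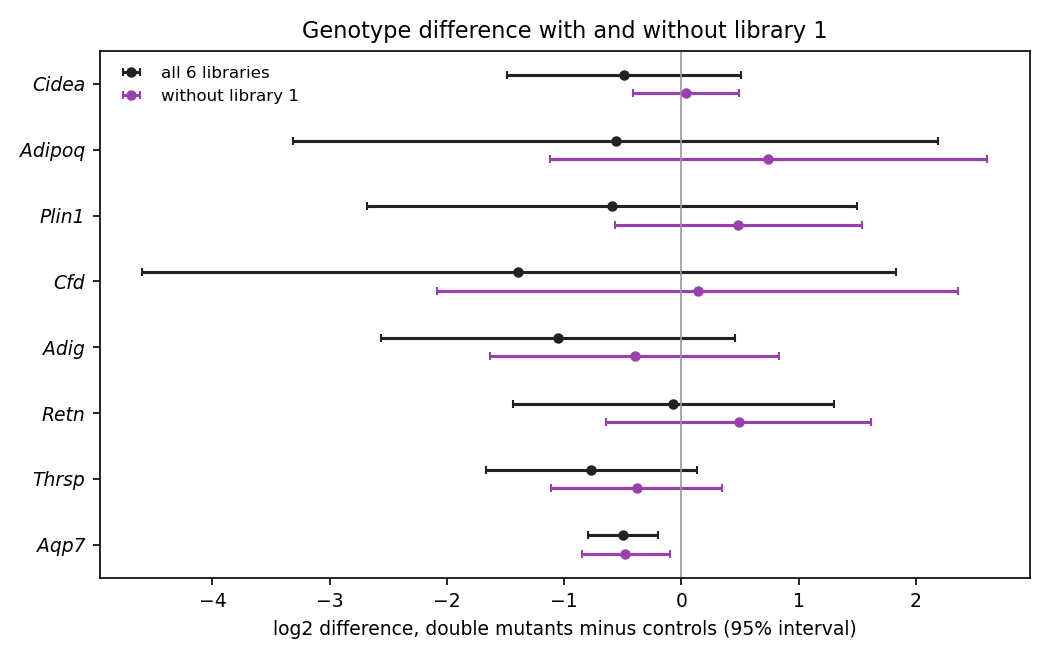
Points are log2 differences, double mutants minus controls, with 95% intervals from limma, for all 6 libraries (black) and without library 1 (purple). The points of Cidea, Adipoq, Plin1, Cfd and Retn cross 0 when library 1 is left out, while Aqp7 stays at -0.50 and -0.48 and Thrsp and Adig stay below 0. Plin1 and Retn reached the filter only through library 1, so nothing is read from their crossing.

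Among the lists of related genes, the median of the adipocyte-selective list changed sign without library 1, and those of the other 2 did not. The 16 tested adipocyte-selective genes outside the 10 had a median log2 difference of -0.30 with all libraries and 0.35 without library 1, against -0.01 and 0.00 over all genes, and 0 passed either way. Their median was also above 0 with library weights (0.11) and without libraries 1 and 5 (0.24). Each of these shifts was smaller than the SD between replicates of the list's mean level. The 8 tested brown fat-selective genes outside the 10 had a median of -0.26, and -0.08 without library 1. The 19 adipocyte genes with further sources, such as Lpl (560 to 691), Cd36 (311 to 407), Fabp4 (229 to 443) and Pnpla2, had a median of 0.02, and 0.04 without library 1. With scaling to a fixed total, which moved the median of all genes to -0.16, that median was -0.17. In this last list 0 of 19 were at least 2 times the next library in library 1.

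Markers of several other tissues moved with library 1 and partly with library 5. The 5 genes most like Ucp1 over the libraries were Scgb3a2 (distance 0.93), Scgb3a1 (0.93), Cyp2f2 (1.21), 1700022I11Rik (1.38) and Scgb1a1 (1.48). Scgb1a1, Scgb3a1, Scgb3a2 and Cyp2f2 are known from secretory cells of the airway lining. Scgb1a1 was at an FPKM of 100.2 in library 1 and at 0.12 in library 2, and it was listed at 0 in the other 4. In a list of 15 airway and lung genes drawn up after these values were seen, 13 were highest in library 1, and the summed FPKM was 316 there against 6.05 to 11.3 elsewhere. Bpifa1, a secreted protein of the upper airways, was at 153 in library 1, whereas the alveolar gene Sftpc was at 0.085 and Sftpb was listed at 0. Several atrial muscle genes were high in libraries 1, 5 and 6: Myl7, the atrial myosin light chain, was at 409, 173 and 229 there and at 1.21 to 13.4 in the others. Other atrial genes differed from this: Bmp10, a growth factor of the right atrium, was at 0.48, 10.1 and 32.5 in libraries 1, 5 and 6, and Nppa was at 802 in library 2, above library 5 (491). Library 6 was thus rich in atrial genes while its Adipoq was 0.45. All 11 markers of mesothelium and epicardium were highest in library 1, with a sum of 33.7 against 9.89 to 17.1. All 8 macrophage markers were highest there too, with a sum of 154 against 49.3 to 74.9. Over all genes tested, library 1 was highest for 43.1%. Of the thymus and lymph node list, Rag1 and Ptcra were listed at 0 in all 6 libraries, while the B cell gene Ighm was at 7.56 in library 1 and 0.77 to 4.78 elsewhere, and the T cell gene Cd3g was highest in library 4, at 1.47. Red blood cell markers had another profile, with a summed FPKM of 12517 in library 4 against 104 to 1206 in the others. Hba-a2 alone was at 9506 in library 4. Library 1 was highest for 0 of the 3 found. All 3 were higher in the double mutants at an unadjusted p under 0.05 by limma (6.97% of all genes), and 0 passed. The part of these tissues in the levels of the fat genes was not tested.

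**Figure D5:**
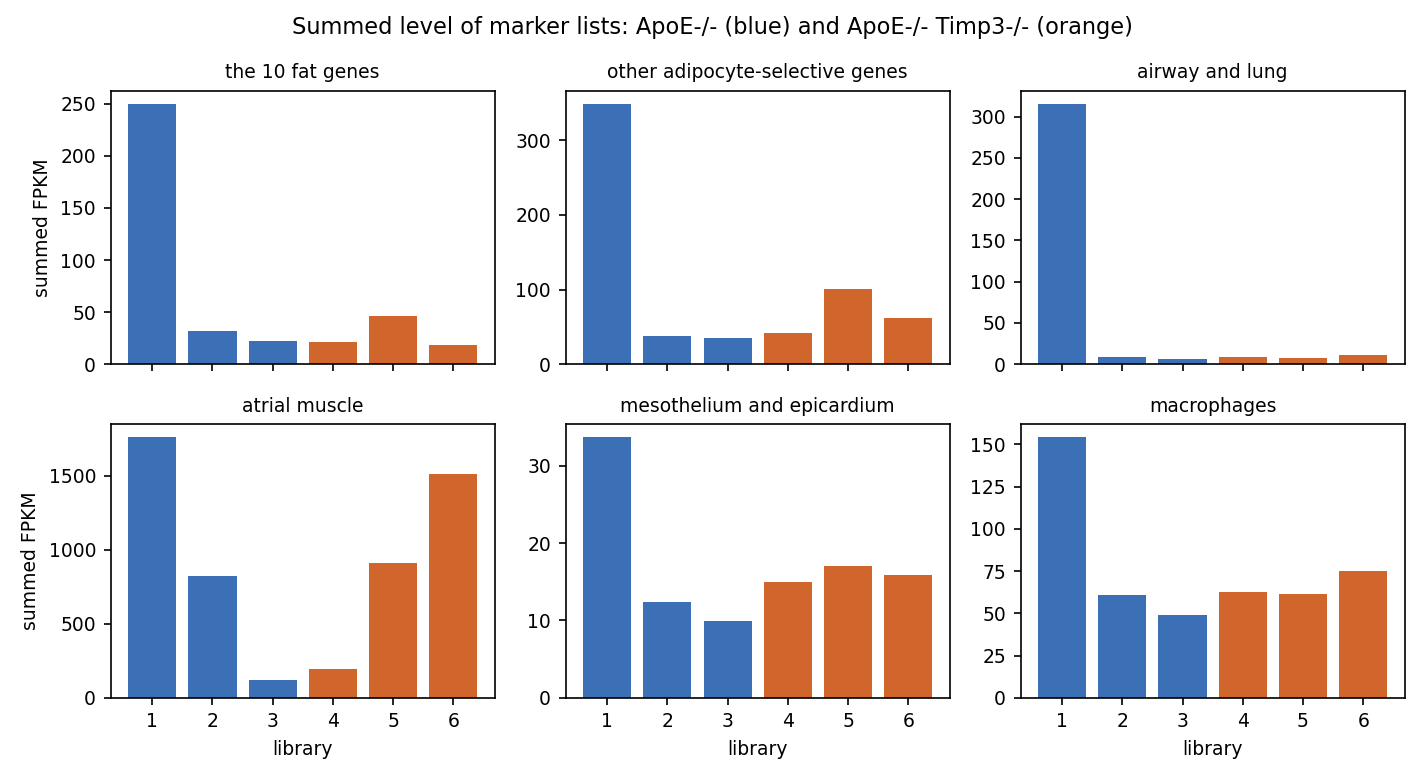
Bars give the summed FPKM of each list by library, ApoE-/- in blue and ApoE-/- Timp3-/- in orange. Library 1 is highest in all 6 panels, library 5 is second for both fat lists, and library 6 is second for atrial genes; the atrial bar of library 2 comes mostly from Nppa, at 802.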

How the data were processed

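Messenger RNA of 6 whole hearts was sequenced, 3 per genotype, from Trizol-extracted RNA, per the labels' protocols. For every library the authors deposited a transcript file from Cufflinks holding FPKM, intervals and coverage. The submitters' processing notes name TopHat, Bowtie and the build NCBIM37 too, without versions, settings or strand. Reads of overlapping genes on either strand therefore cannot be told apart, and without read numbers neither a count test nor a counting interval is given.

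FPKM was summed over the transcripts of each gene. Of 94670 reference transcripts, 82353 found their gene through the transcript ID, 5261 through the file's gene ID and 6235 by exon overlap of at least 50%. Assembled transcripts of at least 300 nt were added by the same overlap (39116 of 70603). Gene symbols came from a later annotation by identifier, and 193 genes with a transcript absent from a file were left out. Because Cufflinks can write 0 where its estimate failed, such a gene is called listed at 0 and gets no fold.

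The test took genes whose mean FPKM was 1 or more and whose longest transcript had 300 nt or more. Median-of-ratios factors (0.896 to 1.17) scaled the libraries, and log2(scaled FPKM + 1) went into a two-sided limma 3.58.1 fit with trend (R 4.3.3) and Benjamini-Hochberg adjustment over all genes, with 0.05 as threshold. The added 1 shrinks the fold changes of low genes. Levels of single libraries are as deposited; means ± SD, and whether groups overlap, are of scaled values. The fitting steps were tested on simulated data with a capped spread between replicates and no outlying library. That test therefore does not cover a case like library 1.

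The members and lists were chosen with earlier results of these data known. Genes named were the 10, the 4 highest of each related list, the uncoupling proteins and aquaglyceroporins, and the 5 nearest profiles of Ucp1, Adipoq and Aqp7. Elovl3, Otop1, Slc27a2, Adrb3, Prdm16, Letmd1, Dio2, Ebf2, Adipor2, Lepr, Mid1ip1, Gk, Gpd2, Lipe, Mogat1, Mogat2, Bpifa1, Sftpc, Sftpb, Rag1, Ptcra and the airway list and markers from the checks of other tissues fell outside this rule and were picked knowing their values.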

Additional observations from a re-analysis of the deposited data

How the results depend on the processing

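Alternatives were other scalings, pseudocounts of 0.1 and 0.5, other filters, annotated transcripts only, library weights, no trend, the adipocyte-selective level as a covariate, each library left out, and libraries 1 and 5 left out together, the last chosen after seeing the data. No paired analysis was possible because the groups share no replicate number. The count of 0 passing genes held under each alternative for the fat genes that reached the filter without library 1. For the listed adipocyte genes it held under each but the covariate. No count was taken there, because the covariate is made from the adipocyte-selective genes among them. With the covariate, the median was -0.17 for the brown fat-selective genes and 0.03 for the adipocyte genes with further sources. Over all genes, 5 passed by limma, 3 with a pseudocount of 0.1, 9 without a filter, 1 with a filter at 5, 102 with library weights, and 3 to 11 with a library left out (3 without library 1, 11 without library 2, 10 without library 4). The median of adipocyte genes with further sources moved from 0.02 to -0.13 with quantile normalization and -0.17 with a fixed total. The differences of 5 genes, below 0 with all libraries, turned positive in some alternatives. Among them, Plin1 and Retn reached the filter only through library 1. With 1 library left out, Cidea ranged from -0.81 to 0.04, Adipoq from -1.41 to 0.74, Plin1 from -1.17 to 0.48, Cfd from -2.37 to 0.14 and Retn from -0.57 to 0.49. Cidea was at 0.05 with annotated transcripts only, 0.04 without library 1 and 0.14 without libraries 1 and 5. Adipoq was at 0.47 with library weights and 0.74 without library 1; Plin1 at 0.16, 0.48 and, without both libraries, 0.03; Cfd at 0.08 and 0.14. Retn was at 0.49 with library weights, 0.14 with the covariate, 0.49, 0.23 and 0.13 without libraries 1, 4 and 6, and 0.00 without libraries 1 and 5. The cause was not tested. Aqp7 stayed below 0 in 17 of 17 alternatives, from -0.66 to -0.40, with an adjusted p by limma of 0.069 (library weights) to 0.71. Adig also stayed below 0 in 17 of 17, and Thrsp in 18 of 18. Read numbers are unknown, so depth limits the low levels: the file intervals of Ucp1 in libraries 2 and 5 include 0.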
